A study of Mus musculus with 12 samples.

Results

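The comparison described here set C8-D1A cells kept for 24 h under 15% CO2 against control cells kept at 37 °C under 5% CO2. C8-D1A is an established mouse line derived from astrocytes, the glial cells that buffer and feed neurons. Libraries were taken by treatment label alone and genes by level alone: 6 of the 12 libraries of the series, 3 in each group, and 12326 of 21959 listed genes, those with at least 1 TPM (transcripts of a gene among 1000000) in at least 3 of the 12 libraries. The other 6 libraries came from the same line after 24 h with 20 mM lactic acid or in medium with 0.2 g/L NaHCO3, and entered the fit of the spread and a comparison of levels. The labels give no pH, no genotype change and no other agent for any group, and do not tell if a group's 3 libraries are separate cultures, so every p-value measures only the spread between these libraries. All results rest on 1 line, and a share of the transcript pool cannot tell more RNA of a gene from less of the others.

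Dissolved CO2 forms carbonic acid, crosses membranes freely and lowers the pH inside cells as well as outside, while bicarbonate transporters and carbonic anhydrases carry and convert the products. The main gene groups described below have well-known switches. Type I interferon binds the receptor pair Ifnar1 and Ifnar2, and a complex that includes Stat2 and Irf9 then activates antiviral genes through a short promoter element. Myod1, Myf5 and Myog are the transcription factors that turn on muscle genes, and sterol synthesis genes are driven by SREBP2 when cell membranes are short of cholesterol.

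Control 1 stood apart. It listed 17319 genes above 0, against 15147 and 15232 in the other controls and 15098 to 15219 in the 15% CO2 libraries. It held mRNAs of other brain cells: all 8 neuron markers and all 8 oligodendrocyte markers of the lists used here were highest in it, with neuron markers summing to 2284 TPM against 129 to 136 TPM in controls 2 and 3 and 91.9 to 125 TPM under 15% CO2. Snap25, a synaptic vesicle fusion protein, stood at 603 TPM in control 1 and at 0 in the 3 15% CO2 libraries. Summed levels in control 1, in controls 2 and 3, and under 15% CO2 were 958, 79.4 to 82.1 and 67.2 to 86.5 TPM for oligodendrocyte markers, and 205, 70.96 to 74.6 and 91.02 to 108 TPM for microglia markers. The microglia sum did not set control 1 apart from the lactic acid libraries, which had 210.5, 204.7 and 257.5 TPM. Of the 8 microglia markers, 7 were highest in control 1. Vim, an intermediate filament gene, had 1000, 1902 and 1864 TPM in controls 1, 2 and 3. The comparison was therefore made with all 3 controls and with controls 2 and 3 only, and some genes are given for the latter alone. The part that other brain RNA plays in the former was not tested. The line itself lacked several defining astrocyte mRNAs: outside control 1, 10 of 21 astrocyte identity genes stayed under 1 TPM in every library, Slc1a3, the glutamate transporter GLAST, stood at 0 in the 15% CO2 libraries and in controls 2 and 3, and Aqp4, the astrocyte water channel, had 0.0394, 0 and 0.0845 TPM under 15% CO2. Nes and Sox2, which mark neural progenitors, were present at 676, 691 and 647 and 275, 261 and 266 TPM.

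With all 3 controls, 158 genes were higher and 8 lower under 15% CO2 at an adjusted p under 0.05 (limma over all 12 libraries, Benjamini-Hochberg), 1.28% and 0.0649% of 12326, or 1.35% in either direction. With controls 2 and 3 only, 711 genes were higher and 191 lower, 5.82% and 1.56% of the 12226 then tested, or 7.38% in either direction. All 166 genes of the first set were in the second with the same direction, and 736 passed only without control 1. Rises were the larger changes: 50 genes rose by at least 1 on the log2 scale with all controls and none of the 8 fell by as much, and 86 rose and 6 fell by as much without control 1. The median change of all tested genes was 0.01 and 0.03. Log2 changes are differences of mean log2(TPM + 1), given ± SE, with 3 libraries against 3, or 3 against 2 without control 1; they understate changes of genes near 1 TPM. The counts depended on single libraries: the 166 calls became 47 without control 2, 30 without 15% CO2 1, 35 without 15% CO2 2 and 92 without 15% CO2 3, and a fit of these 6 libraries alone, without the other treatments, called 0 of 12033 genes, with 1165 at an unadjusted p under 0.05. Without control 1, the 902 calls became 56 without control 2, 206 without control 3, 345 without 15% CO2 1 and 554 without 15% CO2 3, and 944 in a fit of the 5 libraries alone.

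**Figure D1:**
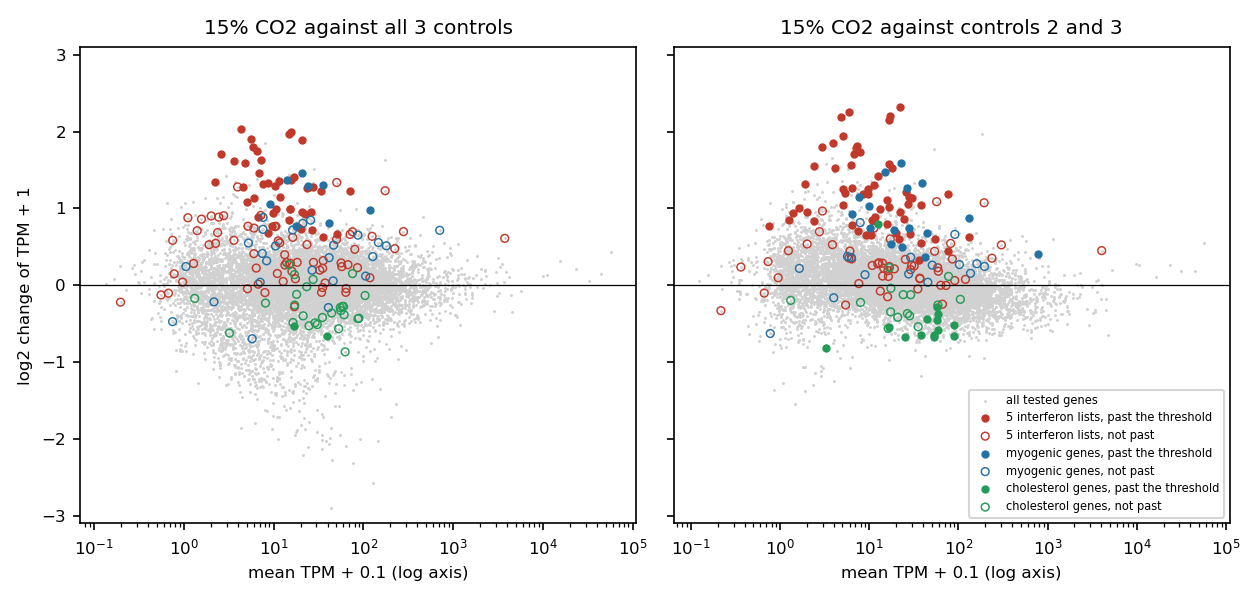
Log2 change of TPM + 1 between 15% CO2 and control (vertical axis) against mean TPM + 0.1 on a log axis, 1 point a gene, with all 3 controls on the left and controls 2 and 3 on the right; filled points passed the threshold. The interferon lists (red) and the myogenic genes (blue) lie mostly above 0 and the cholesterol genes (green) mostly below, with 44 interferon genes filled on the left and 59 on the right.

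Interferon-induced genes rose together. Over 5 lists with 110 tested genes (signalling, sensors, antiviral effectors, interferon-inducible GTPases with the Ifi200 genes, and antigen presentation), 44 rose with all 3 controls and 59 without control 1, and none fell. That is 40% and 53.6% of the members tested, beside 1.28% and 5.82% of all genes, and the 44 made up 27.8% of all genes that rose. The median change of the members was 0.70 and 0.67. Ifit1, which binds foreign RNA ends, had 7.52, 3.79 and 5.48 TPM in controls 1, 2 and 3 and 26.4, 30.1 and 18.7 TPM in 15% CO2 1, 2 and 3. The groups did not overlap, as for 15.2% of all tested genes, and the change was 1.999 ± 0.23 with all controls (adjusted p = 0.0038) and 2.20 ± 0.21 without control 1 (adjusted p = 0.00139).

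The promoter element through which Stat2 and Irf9 act holds 2 copies of GAAA with any 2 bases between. In the 250 bases before the start this pattern, read on both strands and with overlaps allowed, occurred in 312 of 9640 tested genes with a promoter in the RefSeq table (3.24%), in 12 of 31 antiviral effectors (38.7%) and in 13 of 15 GTPase and Ifi200 genes (86.7%), whether or not these rose. It occurred in 3 of 17 signalling genes (17.6%), 2 of 15 class I genes (13.3%) and 0 of 11 sensors, which makes 30 of 89 over the 5 lists (33.7%). The stretches shown belong to 3 of the genes with the largest rises that carry it, with the matches in capitals, on the opposite strand in Ifit1 and Ifit3. They lie on the plus strand of GRCm38.p6 at chr19:34640755-34640843 (Ifit1, from 134 bases before the start), chr19:34583343-34583446 (Ifit3, from 186) and chr11:58214883-58214952 (Irgm2, from 94). Ifit3b, a near-copy of Ifit3, carries the same letters as the Ifit3 stretch at chr19:34607739-34607842, and reads of the pair may have been divided between them. A match is a description of sequence and no evidence of binding in these cells.
Ifit1: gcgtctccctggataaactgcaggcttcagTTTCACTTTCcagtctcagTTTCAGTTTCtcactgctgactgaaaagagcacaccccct
Ifit3: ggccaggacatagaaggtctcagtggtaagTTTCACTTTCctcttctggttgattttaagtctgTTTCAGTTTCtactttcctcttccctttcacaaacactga
Irgm2: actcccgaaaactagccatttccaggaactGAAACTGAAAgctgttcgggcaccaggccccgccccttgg

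Ifnb1, a ligand gene, was too low in both groups for a comparison, and the receptor gene Ifnar1 did not pass. Ifnb1, the interferon beta gene, stood at 0 in all 3 15% CO2 libraries and at 0, 0.583 and 0 TPM in controls 1, 2 and 3. Ifnar1 had 39.98, 36.4 and 34.7 TPM in the controls and 38.1, 36.7 and 38.5 TPM under 15% CO2, a change of 0.03 ± 0.08 that did not pass. Of 19 tested signalling genes, a list that includes receptor genes, 4 rose with all controls and 5 without control 1. Over all genes 1.28% and 5.82% rose. Stat2, a transcription factor of the complex that enters the nucleus, went from 20.4, 15.2 and 17.1 TPM in the controls to 38.2, 36.6 and 29.6 TPM, a change of 0.95 ± 0.13 (adjusted p = 0.00848). Irf9, the DNA-binding part of the same complex, had 13.9, 12.8 and 14.6 TPM in controls and 26.4, 35.1 and 22.5 TPM under 15% CO2. Irf7, the factor that amplifies interferon production, had 3.42, 2.43 and 2.81 TPM in controls and 13.2, 12.5 and 8.02 TPM under 15% CO2, a change of 1.64 ± 0.22 (adjusted p = 0.0078). All 3 genes had every 15% CO2 library above every control, as did 15.2% of all tested genes. Their changes without control 1 were 1.05 ± 0.12, 0.96 ± 0.16 and 1.73 ± 0.23. Usp18, which damps receptor signalling, rose by 1.74 ± 0.19 from 2.68, 2.11 and 2.21 to 10.2, 13.7 and 7.36 TPM.

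Among 14 tested sensors of foreign nucleic acid and their kinases, 5 rose in both comparisons, beside 1.28% and 5.82% of all genes: Ddx58, Ifih1, Zbp1, Ikbke and Trim25. Ddx58, which encodes the RNA sensor RIG-I, had 11.6, 14.2 and 16.9 TPM in controls and 37.9, 39.1 and 30.4 TPM under 15% CO2, a change of 1.28 ± 0.15 (adjusted p = 0.0038). Ifih1, encoding the sensor MDA5, had 5.56, 7.07 and 7.31 and 13.02, 16.4 and 13.2 TPM. Zbp1, a sensor of left-handed nucleic acid, was the lowest of them in level, with 2.001, 0.619 and 1.05 TPM in controls and 5.78, 8.19 and 3.58 TPM under 15% CO2, and had the largest change, 1.61 ± 0.27 (adjusted p = 0.0169). Ikbke, a kinase that activates interferon regulatory factors, changed by 0.88 ± 0.17 (adjusted p = 0.0302). For these 4 genes every 15% CO2 library lay above every control, as for 15.2% of all tested genes. With all controls the 5 calls became 2 under quantile normalization, Ddx58 and Zbp1.

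Of 40 antiviral effectors, all tested, 24 rose with all controls and 28 without control 1, beside 1.28% and 5.82% of all genes. All 40 changes were above 0, with medians of 1.04 and 1.08. Oas2, an enzyme that makes the messenger activating RNase L, had 1.45, 0.344 and 1.27 TPM in controls 1, 2 and 3 and 6.68, 10.98 and 4.56 TPM in 15% CO2 1, 2 and 3, a change of 2.03 ± 0.28 (adjusted p = 0.00848). Its relatives Oasl2 and Oas1b went from 3.29, 0.891 and 1.31 to 8.78, 10.9 and 7.52 TPM and from 1.62, 1.87 and 2.599 to 9.98, 11.4 and 7.404 TPM, where reads of similar Oas genes may have been divided. Rtp4, an interferon-induced regulator of antiviral signalling, changed by 1.97 ± 0.23 from 7.29, 3.69 and 5.67 to 21.1, 31.03 and 20.9 TPM. Ifit3, a partner of Ifit1, had 14.7, 4.63 and 6.498 and 33.1, 44.9 and 20.7 TPM, with its highest control in control 1 and changes of 1.89 ± 0.34 and 2.32 ± 0.25 in the 2 comparisons. The copies Apol9b and Apol9a, interferon-induced apolipoprotein L genes outside the lists, changed by 1.51 ± 0.24 and 1.43 ± 0.20. Mx1, an antiviral GTPase picked after its values were seen, changed by 1.28 ± 0.14.

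Some abundant effectors did not pass although their 15% CO2 libraries lay above the controls. Isg15, the ubiquitin-like modifier of the response, had 18.4, 28.9 and 34.4 TPM in controls and 64.97, 113 and 42.7 TPM under 15% CO2, and its change of 1.34 ± 0.33 had an adjusted p of 0.0812. Ifi27, another interferon-induced gene, had 78.7, 100.1 and 119 and 218, 386 and 147 TPM and an adjusted p of 0.0927; both were picked after their values were seen. In both, 15% CO2 2 was the highest of the 3 treated libraries and 15% CO2 3 the lowest. Of the 44 genes that rose with all controls, 15% CO2 2 was the highest of the 3 libraries in 40 and 15% CO2 3 the lowest in 40. Mitochondrially encoded mRNAs had the opposite order, summing to 203700, 156000 and 248000 TPM in 15% CO2 1, 2 and 3 and to 197300, 156300 and 163100 TPM in controls 1, 2 and 3, and the part this difference plays was not tested. The antiviral count with all controls was 11 without 15% CO2 1, 10 without 15% CO2 2, 24 without 15% CO2 3 and 12 without control 2. Without control 1 it was 12 without control 2 and between 23 and 31 without any other library.

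**Figure D2:**
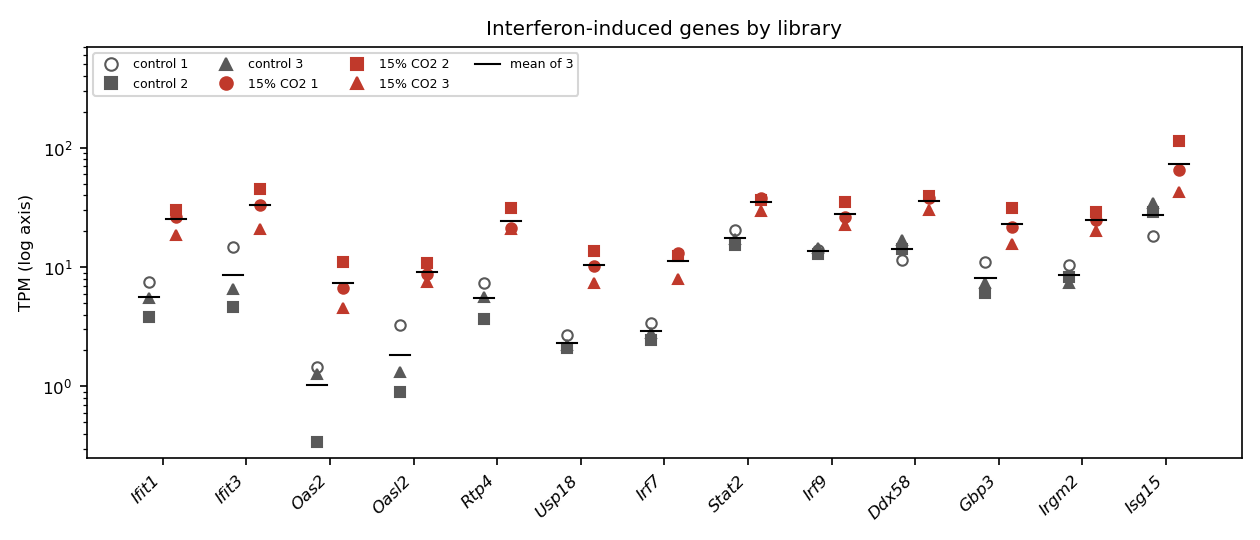
TPM of 13 interferon-induced genes in each library on a log axis, grey for control (control 1 hollow) and red for 15% CO2, with symbols for replicates 1, 2 and 3 and a line at each mean of 3. All 15% CO2 points of a gene lie above its controls, and the triangle of 15% CO2 3 is the lowest red point in most genes, as in Ifit1 at 18.7 TPM.

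Interferon-inducible GTPases attack the vacuoles of intracellular parasites, and the Ifi200 genes encode sensors and regulators of DNA-driven responses. Of 19 tested, 9 rose with all controls and 16 without control 1, beside 1.28% and 5.82% of all genes, with medians of 0.90 and 1.003. Irgm2 had 10.3, 8.23 and 7.42 TPM in controls and 24.8, 29.1 and 20.1 TPM under 15% CO2, a change of 1.41 ± 0.18 (adjusted p = 0.00593). Gbp3, a guanylate-binding protein, had 10.999, 6.09 and 7.399 and 21.7, 31.2 and 15.6 TPM and changed by 1.36 ± 0.24. Iigp1 had 3.53, 0.826 and 1.52 and 8.05, 9.02 and 5.25 TPM, the highest control again being control 1, and changed by 1.59 ± 0.31 with it and 1.95 ± 0.23 without. Tgtp2, nearly identical to Tgtp1, had 2.47, 0.298 and 0.671 TPM in controls, where control 1 reached into the range of the 15% CO2 libraries at 3.18, 2.84 and 2.06 TPM, and passed only without control 1 (1.31 ± 0.18, adjusted p = 0.00322). The count was 3 without 15% CO2 1, 4 without 15% CO2 2 and 6 without control 2 with the other controls kept, and 3 with control 3 alone.

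Antigen presentation genes gave fewer calls. Of 18 tested class I genes, 2 rose with all controls and 5 without control 1, beside 1.28% and 5.82% of all genes. The medians were 0.44 and 0.35. The 2 became 4 under quantile normalization. Tapbp, the chaperone that loads peptides, had 36.3, 40.3 and 41.9 TPM in controls and 64.8, 66.6 and 58.1 TPM under 15% CO2, a change of 0.66 ± 0.08 (adjusted p = 0.00593). H2-K1, a class I heavy chain whose reads may be shared with its relatives, had 96.3, 94.2 and 99.8 and 153, 188 and 119 TPM and passed only without control 1, by 0.63 ± 0.16 (adjusted p = 0.0387). Tap1, the peptide transporter, changed by 0.74 ± 0.19 and 0.79 ± 0.20 and passed in the latter. Among 13 tested chemokines and cytokines only Cxcl10 passed in either comparison, beside 1.28% and 5.82% of all genes higher. This interferon-induced chemokine had 2.87, 2.33 and 4.27 TPM in controls and 11.4, 7.895 and 9.82 TPM under 15% CO2, a change of 1.38 ± 0.19 (adjusted p = 0.00848). None of 13 tested genes of the NFkB pathway passed in either comparison by limma, with medians of 0.18 and 0.12 (-0.03 under quantile normalization for the latter) and with 4 and 2 members at an unadjusted p under 0.05.

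Levels of the interferon genes under 15% CO2 were mostly below those in low-NaHCO3 medium. Of the same 110 genes, 65 were lower than in the low-NaHCO3 libraries and 5 higher in the fit with all libraries, beside 17.5% of all genes lower and 33.7% higher. Against lactic acid 3 were higher in that fit and 39 in the fit without control 1, beside 0.17% and 2.96% of all genes, and none was lower, beside 0.0325% and 1.64%. No control level enters this contrast, so its log2 changes are the same in both fits. The shared estimate of the spread differs: Ifit1 stood at 1.57 ± 0.23 and at 1.57 ± 0.19 without control 1. Ifit1 had 5.94, 7.82 and 9.52 TPM in the lactic acid libraries and 66.01, 76.8 and 63.999 TPM in the low-NaHCO3 libraries, with no overlap with the 15% CO2 libraries on either side.

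Muscle genes formed the next group, in a line labelled astrocyte. Of 33 tested myogenic genes, 8 rose with all controls, beside 1.28% of all genes, and 16 of 32 without control 1, beside 5.82%, none fell, and the medians were 0.55 and 0.45. Myog, the factor that starts muscle differentiation, had 12.8, 8.92 and 10.4 TPM in controls 1, 2 and 3 and 32.4, 33.3 and 27.3 TPM in 15% CO2 1, 2 and 3. All 15% CO2 libraries were above all controls, as for 15.2% of all tested genes. The change of Myog was 1.46 ± 0.22 (adjusted p = 0.0116) and 1.58 ± 0.22 without control 1 (adjusted p = 0.00333). Klhl41, a sarcomere assembly protein, had 8.62, 6.14 and 7.41 TPM in controls and 20.002, 24.3 and 17.5 TPM under 15% CO2, and changed by 1.36 ± 0.23. Tnnt3, the fast troponin T, went from 21.03, 18.2 and 21.2 to 51.3, 54.2 and 47.4 TPM, a change of 1.30 ± 0.11 (adjusted p = 0.00259), and Actc1, cardiac actin, from 12.8, 10.5 and 17.98 to 36.4, 36.2 and 30.9 TPM, a change of 1.29 ± 0.19. Neither overlapped its controls.

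The regulators that act before Myog were expressed too. Myf5, picked like Myod1 after its values were seen, was the most abundant of the 3 factors, with 80.8, 126 and 130.1 TPM in controls and 140.4, 146 and 141 TPM under 15% CO2, and did not pass (0.37 ± 0.15 and 0.15 ± 0.06). Myod1 had 9.22, 19.7 and 17.5 TPM in controls, lowest in control 1, and 28.8, 23.3 and 27.9 TPM under 15% CO2. It passed only without control 1, by 0.49 ± 0.11 (adjusted p = 0.0259). The count of 8 was 16 without control 1, 4 without control 2, 2 without 15% CO2 1 and 3 without 15% CO2 2, and the count of 16 was 2 with control 3 alone and 8 with control 2 alone.

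In the fit with all 12 libraries 8 genes were higher under 15% CO2 than in control, lactic acid and low-NaHCO3 libraries alike, and every one is known from skeletal muscle: Myog, Klhl41, Actc1, Tnnt1, Tnnt3, Mymk, Hfe2 and Actn3. Of the 158 genes above control, 11 were also above lactic acid and 56 above low NaHCO3. Myog showed the widest gap, with 3.56, 3.87 and 6.71 TPM in the lactic acid libraries and 0.355, 0.335 and 0.892 TPM in the low-NaHCO3 libraries, and was 2.52 ± 0.22 higher than in lactic acid (adjusted p = 0.00154). Tnnt1, the slow troponin T, had 68.9, 79.1 and 93.4 TPM in controls, 163, 166 and 149 under 15% CO2, 69.4, 68.9 and 72.6 with lactic acid and 28.6, 26.2 and 29.2 in low NaHCO3. Mymk, which drives myoblast fusion, had 5.21, 5.21 and 6.04 TPM in controls and 11.4, 13.2 and 12.9 TPM under 15% CO2, and Hfe2, the bone morphogenetic protein co-receptor hemojuvelin, 18.1, 14.98 and 20.7 and 32.9, 43.4 and 32.7 TPM. Tnnt1, Mymk, Hfe2 and Actn3 are named because of this result, and 15% CO2 had the highest 3 libraries of the series for each. The 8 became 92 without control 1, 4 without control 2, 3 without 15% CO2 1 and 2, Tnnt1 and Tnnt3, without 15% CO2 2. The 92 are not listed here. Cd82 joined the set under a filter of 5 TPM, median-of-ratios scaling and quantile normalization, and without 15% CO2 3. Asb2, Ryr1 or Dusp13 joined it under quantile normalization or without the variance trend. No gene was lower under 15% CO2 than in all 3 other groups by limma in that fit, where 12 were at an unadjusted p under 0.05 in each contrast, and 11 passed without control 1, among them Rbm3.

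Muscle regulators bind E-boxes, and the form CAGCTG, which reads the same on both strands, occurred in the 250 bases upstream of 13 of 27 myogenic genes in the RefSeq table (48.1%), whether or not these rose, and of 1372 of 9640 tested genes (14.2%). Of the myogenic genes that rose without control 1, 6 of 13 carried it (46.2%), a share no higher than that of the list. Shown are the myogenic genes that rose with all controls and carried it. The Klhl41 stretch lies at chr2:69669963-69670028 on the plus strand of GRCm38.p6, starting 157 bases before its start. That of Tnnt2, cardiac troponin T, named because of this match, lies at chr1:135836084-135836212, starting 250 bases before 1 of its 2 listed starts. Tnnt2 rose from 24.98, 31.2 and 33.8 to 56.2, 51.03 and 51.1 TPM, by 0.80 ± 0.12. Capitals mark the E-box, and a match is no evidence of binding in these cells.
Klhl41: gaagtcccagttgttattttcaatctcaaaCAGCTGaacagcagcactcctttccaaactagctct
Tnnt2: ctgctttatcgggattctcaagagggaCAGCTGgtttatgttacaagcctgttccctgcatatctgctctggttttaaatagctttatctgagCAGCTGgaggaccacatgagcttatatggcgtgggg

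**Figure D3:**
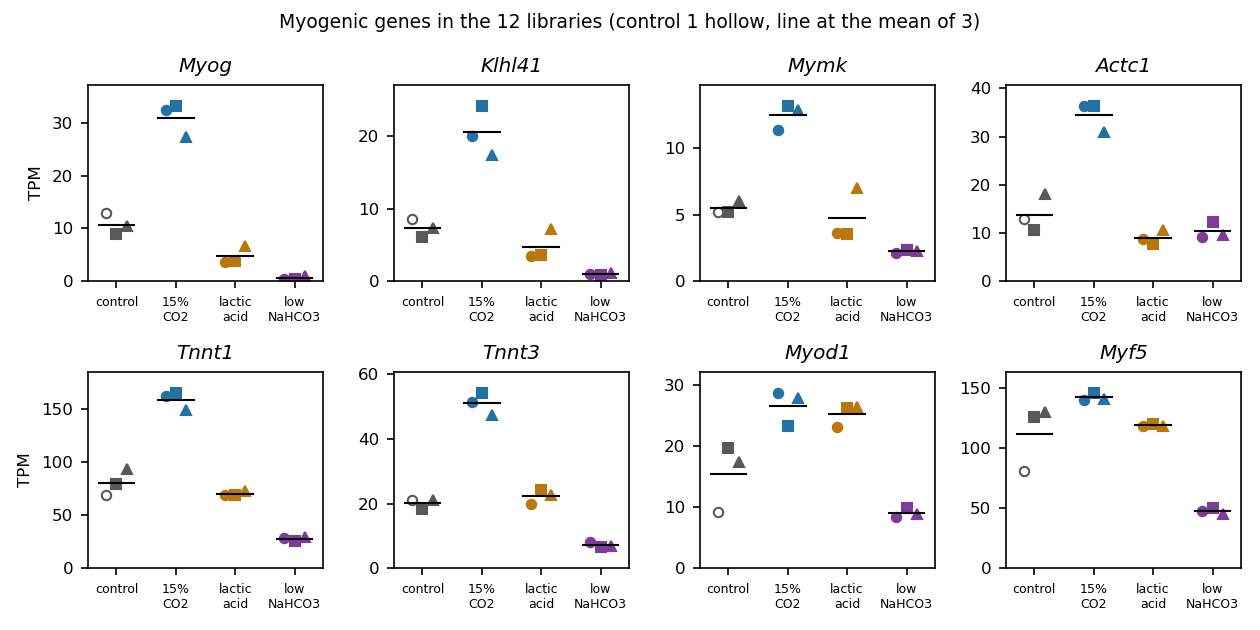
TPM of 8 muscle genes in the 12 libraries, by group, with circles, squares and triangles for replicates 1, 2 and 3, control 1 hollow and a line at each mean of 3. In the first 6 panels the 3 15% CO2 libraries stand above every other library, while Myf5 in the last panel runs from 140.4 to 146 TPM under 15% CO2 and reaches 130.1 TPM in control 3.

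Of 16 tested genes of the insulin-like growth factor system, 4 rose with all controls and 7 without control 1, beside 1.28% and 5.82% of all genes, with medians of 0.39 and 0.30. Igfbp5, a secreted binding protein that modulates the growth factors, had 133, 57.9 and 76.8 TPM in controls, highest in control 1, and 274, 264 and 249 TPM under 15% CO2. Its 15% CO2 libraries were above all controls, as for 15.2% of all tested genes. Igfbp5 changed by 1.63 ± 0.29 (adjusted p = 0.0215) and 1.96 ± 0.24 without control 1 (adjusted p = 0.00182). In the lactic acid and low-NaHCO3 libraries it had 86.2, 90.5 and 171 and 3.58, 3.41 and 3.47 TPM. Igf2, a ligand, went from 1.48, 1.03 and 1.25 to 4.98, 2.96 and 4.19 TPM, a change of 1.15 ± 0.24, and Igfbp7 from 40.6, 38.5 and 32.2 to 57.5, 56.5 and 59.7 TPM, a change of 0.63 ± 0.11. Pappa, the protease that frees the ligands, passed only without control 1 (0.72 ± 0.16). The 4 calls became 2 under median-of-ratios scaling, 0 without control 2 or without any 1 of the 3 15% CO2 libraries and 1 without control 3, and the 7 became 2 with either control alone.

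Of 26 tested extracellular matrix genes, 1 rose with all controls and 7 without control 1, beside 1.28% and 5.82% of all genes, and none fell, with medians of 0.32 and 0.19. Fn1, encoding fibronectin, had 228, 377 and 386 TPM in controls and 602, 568 and 617 TPM under 15% CO2, a change of 0.89 ± 0.19 (adjusted p = 0.0441), the 1 call with all controls, which was lost under median-of-ratios scaling. Col6a1, a collagen VI chain, had 97.4, 50.1 and 54.1 TPM in controls, with control 1 above the 15% CO2 libraries at 81.96, 75.2 and 71.97 TPM, and passed without control 1 by 0.54 ± 0.09. Ccn2, a matricellular protein, changed by 0.53 ± 0.12 and Postn, periostin, by 0.56 ± 0.13 in that comparison. The 7 became 0 with control 3 alone and 1 with control 2 alone. Selenop, a secreted selenium carrier outside the lists, had 224, 17.8 and 24.9 TPM in controls 1, 2 and 3 and 76.5, 74.6 and 71.7 TPM under 15% CO2, and its change was 0.65 ± 0.71 with all controls and 1.77 ± 0.24 without control 1 (adjusted p = 0.00292).

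Cholesterol genes were lower. Of 29 tested genes of synthesis, uptake and efflux, 2 fell with all controls, beside 0.0649% of all genes, and 13 fell without control 1, beside 1.56%, with medians of -0.36 and -0.40. Cyp51, lanosterol demethylase, had 48.9, 52.5 and 44.9 TPM in controls and 30.1, 32.4 and 29.05 TPM under 15% CO2. All 15% CO2 libraries lay below all controls, as for 6.42% of tested genes, and it fell by 0.66 ± 0.11 (adjusted p = 0.0169) and by 0.65 ± 0.11 without control 1 (adjusted p = 0.00872). Lss, the enzyme that closes the sterol rings, went from 19.7, 19.3 and 21.5 to 13.1, 14.3 and 13.4 TPM, a change of -0.53 ± 0.09 (adjusted p = 0.0156). Of the earlier steps, Acat2 had 54.1, 68.6 and 67.8 TPM in controls and 38.6, 49.2 and 39.8 TPM under 15% CO2, and Idi1 23.5, 32.2 and 32.4 and 19.8, 24.4 and 16.2 TPM. Both passed only without control 1, by -0.68 ± 0.14 and -0.68 ± 0.13. Abca1, which exports cholesterol, was the 1 member to rise, by 0.79 ± 0.12 without control 1, from 7.66 and 8.896 TPM to 14.7, 16.9 and 13.6 TPM. Control 1 held 26.7 TPM of it, above every 15% CO2 library, and the change with all controls was 0.26 ± 0.34.

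Lipid-building neighbours moved the same way in smaller number, 1 of 14 fatty acid genes falling with all controls and 3 without control 1 (2 and 6 under median-of-ratios scaling). Over all genes 0.0649% and 1.56% fell. Elovl6, which lengthens saturated fatty acids, had 60.4, 64.5 and 62.2 TPM in controls and 41.8, 45.4 and 44.02 TPM under 15% CO2, a change of -0.50 ± 0.08 (adjusted p = 0.012). Scd2 and Fads2, which insert double bonds, changed by -0.44 ± 0.09 and -0.42 ± 0.06 without control 1. The 2 cholesterol genes that fell with all controls became 0 without control 2 or without any 1 of the 15% CO2 libraries. The 13 became 1 with control 3 alone, 2 with control 2 alone, and 7 without 15% CO2 1 or without 15% CO2 3.

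**Figure D4:**
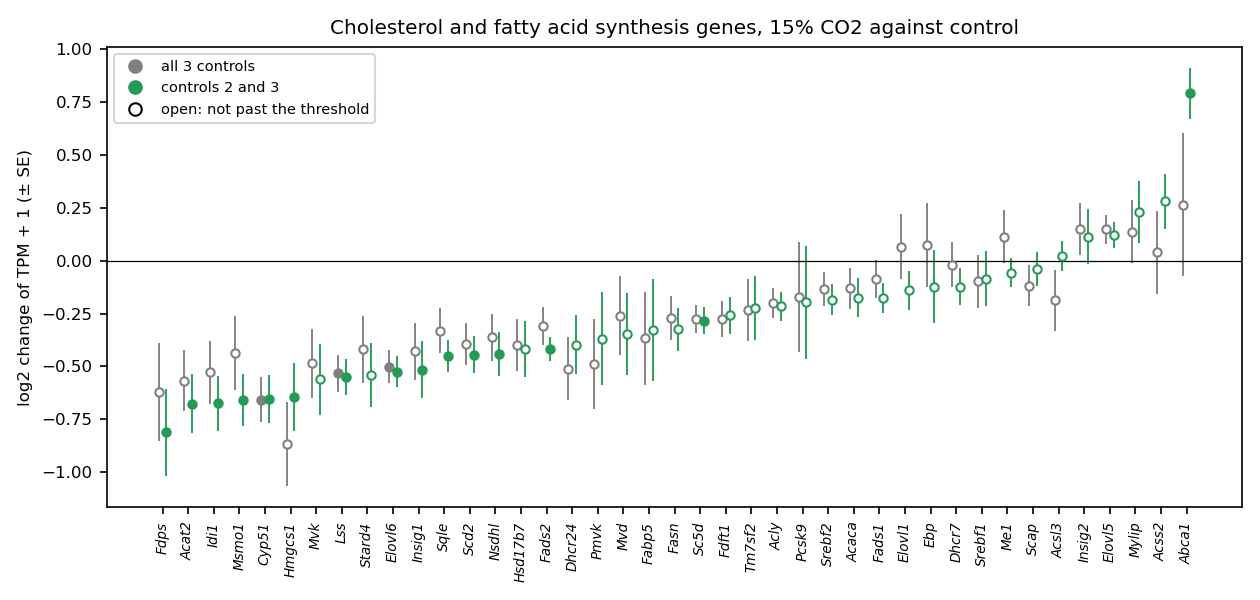
Log2 change of TPM + 1 ± SE for 41 of the 43 tested cholesterol and fatty acid genes, grey with all 3 controls and green with controls 2 and 3, ordered by the latter; open points did not pass. Most genes lie below 0, and Abca1 is far to the right at 0.79 ± 0.12 without control 1 and 0.26 ± 0.34 with it.

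Falls outside lipid synthesis included iron, zinc and RNA-binding genes. Tfrc, the transferrin receptor that brings in iron, had the largest fall with all controls, from 207, 279 and 262 TPM to 134, 161 and 125 TPM, a change of -0.82 ± 0.15 (adjusted p = 0.0227) and of -0.95 ± 0.14 without control 1. Within the 17 tested iron genes it was the 1 to fall with all controls. Without control 1, 3 fell, with Ftl1, a ferritin chain, at -0.42 ± 0.11, and 2 rose: Slc40a1, the iron exporter ferroportin, by 0.78 ± 0.19 and Heph, its partner oxidase, by 0.47 ± 0.10. Over all genes 1.56% fell and 5.82% rose in that comparison. Mt1, a metallothionein that binds zinc, had 264, 262 and 235 TPM in controls and 188, 154 and 170.4 TPM under 15% CO2, a change of -0.57 ± 0.10 (adjusted p = 0.0207), the 1 of 7 genes of its list to pass in either comparison. Rbm3, an RNA-binding protein known for its induction by cold, went from 162, 223 and 210.4 to 132, 136 and 126 TPM, a change of -0.58 ± 0.11 with all controls and -0.72 ± 0.07 without control 1 (adjusted p = 0.00139), and had 185, 182 and 172 TPM with lactic acid and 201, 184 and 194 TPM in low NaHCO3, all above the 15% CO2 libraries. Shroom2, an actin-binding protein, and Dynll1, a dynein light chain, changed by -0.49 ± 0.08 and -0.40 ± 0.08. Without control 1 the lowest included Arl9 (-1.25 ± 0.28), the linker histone H1fx (-0.84 ± 0.13), Evi2a (-0.78 ± 0.17) and Creld2, an endoplasmic reticulum protein (-0.72 ± 0.18), as well as Hist1h3c and Eno1b, which have near-identical copies. None of these 6 passed with all controls.

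Genes that handle acid and bicarbonate gave 1 call with all controls. Of 17 tested acid-base transport genes, Car9 was the one, beside 1.28% of all genes higher. This carbonic anhydrase at the cell surface had 6.57, 6.92 and 6.63 TPM in controls and 14.1, 14.2 and 13.1 TPM under 15% CO2, a change of 0.94 ± 0.10 (adjusted p = 0.0038), with narrow spread in both groups. It had 10.6, 11.2 and 11.05 TPM with lactic acid and 12.1, 14.8 and 12.5 TPM in low NaHCO3. Slc4a7, which imports bicarbonate with sodium, had 24.1, 29.4 and 29.4 and 36.4, 41.998 and 37.1 TPM and passed only without control 1, by 0.37 ± 0.09 (adjusted p = 0.0271). Slc4a4, the main astrocyte bicarbonate cotransporter, had 1.39, 1.495 and 1.23 TPM under 15% CO2 against 47.2 TPM in control 1 and 0.906 and 1.09 TPM in the other controls. Car2, an intracellular carbonic anhydrase, stood at 0 in all 3 15% CO2 libraries, and Car12 at 0.194, 0.11 and 0.173 TPM.

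Proton-sensing genes were mostly near or at 0. Gpr65 stood at 0 in the 15% CO2 libraries, Gpr4 had 0.596, 0.193 and 0.64 TPM there, and only 4 members of the list were abundant enough to be tested. None passed with all controls, with 2 at an unadjusted p under 0.05, and Asic3, an acid-sensing channel, passed without control 1, with 1.17, 0.631 and 0.61 TPM in controls and 1.22, 1.38 and 1.96 TPM under 15% CO2. Of 24 tested genes of lactate transport and glycolysis 0 passed with all controls, with 0 at an unadjusted p under 0.05. Without control 1, 2 rose (4 under quantile normalization), beside 5.82% of all genes. Txnip, an inhibitor of glucose uptake, had 30.5, 11.8 and 12.9 TPM in controls, with control 1 above all 15% CO2 libraries at 25.9, 30.2 and 17.6 TPM, and changed by 0.91 ± 0.18 without it. Pfkfb3, which raises glycolytic flux, changed by 0.35 ± 0.08 without control 1 and by 0.01 ± 0.22 with it. Control 1 held 18.5 TPM of Pfkfb3, above the 15% CO2 libraries at 11.7, 11.2 and 11.1 TPM. Slc16a3, the lactate exporter MCT4, had 0.416, 0.261 and 0.248 TPM under 15% CO2. Among 20 hypoxia-responsive genes 0 passed with all controls, with 7 at an unadjusted p under 0.05. Car9, counted above with the acid-base genes, was not in this list. Ndrg1, Mxi1 and P4ha1 rose without control 1, by 0.82 ± 0.11, 0.39 ± 0.08 and 0.34 ± 0.08, beside 5.82% of all genes higher. Control 1 was above every 15% CO2 library for Ndrg1 and Mxi1 and below every one for P4ha1.

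Stress genes called without control 1 were mostly falls: 3 of 18 NRF2-linked genes, 3 of 22 ATF4 targets, 3 of 20 chaperones and 1 of 16 heat shock genes fell, beside 1.56% of all genes. Gstm1, a glutathione transferase, had 337, 290.1 and 299 TPM in controls and 440.1, 454 and 431 TPM under 15% CO2, a rise of 0.52 ± 0.08 (adjusted p = 0.0152), the 1 of 18 NRF2-linked genes to pass with all controls. Without control 1, G6pdx, Nqo1 and Hmox1 of that list fell, by 0.42 ± 0.07, 0.37 ± 0.08 and 0.34 ± 0.08. Nqo1, a quinone reductase that NRF2 drives, had 45.9, 76.7 and 77.5 TPM in controls, with control 1 below the 15% CO2 libraries at 56.8, 61.7 and 59.5 TPM. Control 1 was also below every 15% CO2 library for G6pdx and Hmox1, at 121 and 69.8 TPM. Of 22 ATF4 targets 0 passed with all controls, with 1 at an unadjusted p under 0.05. Without control 1, Chac1, Slc7a5 and Sesn2 fell, by 0.50 ± 0.11, 0.46 ± 0.09 and 0.42 ± 0.11, while Pycr1 rose by 0.52 ± 0.13. Control 1 held 32.9, 137 and 24.4 TPM of Chac1, Slc7a5 and Sesn2, below every 15% CO2 library. Of 20 endoplasmic reticulum chaperones 0 passed with all controls, with 5 at an unadjusted p under 0.05, and Manf (-0.42 ± 0.09), Herpud1 (-0.36 ± 0.07) and Creld2 fell without control 1. Median-of-ratios scaling raised the falls without control 1 to 8 NRF2-linked genes, 10 ATF4 targets and 7 chaperones, from 3 each, while falls over all genes went from 191 to 591, and with either control alone these falls numbered 0 in all 3 lists. Of 16 heat shock genes, Hspa1b alone passed, by -0.46 ± 0.12 without control 1.

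For proliferation genes the sign differed between the 2 comparisons. The median of 24 mitosis genes was 0.22 with all controls and -0.09 without control 1 (0.01 under quantile normalization), and 0 passed in either, with 0 and 5 at an unadjusted p under 0.05. Mki67, the proliferation marker, had 191, 351 and 354 TPM in controls and 375, 343 and 432 TPM under 15% CO2. Of 26 DNA replication genes, Mcm2, a helicase subunit, and Rrm1, a ribonucleotide reductase subunit, passed without control 1, by -0.31 ± 0.08 and -0.24 ± 0.06, beside 1.56% of all genes lower. With control 1 they stood at -0.01 ± 0.20 and 0.04 ± 0.18. Median-of-ratios scaling gave 6 falls in that list without control 1. Of 17 tested p53 targets 0 passed with all controls, with 2 at an unadjusted p under 0.05. Without control 1, Btg2 (0.96 ± 0.15) and Plk2 (0.28 ± 0.07) rose and Bax (-0.63 ± 0.16) fell, beside 5.82% of all genes higher and 1.56% lower. Among 24 immediate early genes, Zfp36, Fosl2 and Egr1 rose, by 0.62 ± 0.15, 0.35 ± 0.09 and 0.41 ± 0.10, and Dusp5 fell, by 0.32 ± 0.07, in the same comparison, beside 5.82% of all genes higher and 1.56% lower. Of these rises Fosl2 was still called under median-of-ratios scaling, while Zfp36 and Egr1 were not called under that scaling or quantile normalization. With all controls, Btg2, Plk2 and Egr1 had changes of -0.11 ± 0.66, -0.01 ± 0.18 and -0.18 ± 0.37, and control 1 held 24.7, 98.6 and 132 TPM of them.

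Of 19 tested clock genes 1 rose with all controls, beside 1.28% of all genes, and 4 without control 1, beside 5.82%. Dbp, a clock output factor, rose by 0.88 ± 0.16 without control 1, from 14.1 and 15.6 to 29.9, 30.3 and 24.7 TPM, and Per3 and Rora by 0.57 ± 0.10 and 0.36 ± 0.09. Of reactive astrocyte genes, 2 of 19 rose with all controls and 5 of 18 without control 1, beside the same shares of all genes, and 3 of the 5, Iigp1, Cxcl10 and Gbp2, are interferon-induced and counted above. The others were Cp, the copper oxidase ceruloplasmin (1.31 ± 0.22), and Serping1, a complement inhibitor (1.15 ± 0.25). Ndrg2, an astrocyte gene, had 247, 13.6 and 16.8 TPM in controls 1, 2 and 3 and 31.9, 29.5 and 30.002 TPM under 15% CO2, and rose by 0.97 ± 0.10 without control 1. Of the bone morphogenetic protein and activin genes, Fst, which traps activin, fell by 0.64 ± 0.14 and Grem1, which traps bone morphogenetic proteins, rose by 0.37 ± 0.09 without control 1, beside 1.56% of all genes lower and 5.82% higher. With all controls 0 of 16 passed, with 5 at an unadjusted p under 0.05.

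Of the markers of other cell types, 1 neuron, 6 oligodendrocyte, 3 microglia, 3 endothelial and mural and 2 red blood cell genes were tested. Pdgfrb was called in both comparisons and Cd68 without control 1, beside 1.28% and 5.82% of all genes higher. Pdgfrb, a receptor of mural cells, had 16.8, 16.04 and 19.5 TPM in controls and 29.4, 26.8 and 27.4 TPM under 15% CO2, a rise of 0.65 ± 0.11 (adjusted p = 0.0207). Cd68, a lysosomal protein of microglia, rose by 0.54 ± 0.12 without control 1, from 61.9 and 65.7 to 99.8, 80.4 and 99.9 TPM. The summed level of the 8 endothelial and mural markers was 45.3 to 46.8 TPM under 15% CO2 and 33.05 to 36.95 TPM in controls 2 and 3, and of the 8 microglia markers 4 stood at 0 in all 3 15% CO2 libraries. The part of other cells in these values was not tested. Of 81 cytosolic ribosomal protein genes 0 passed in either comparison by limma, with 2 and 8 at an unadjusted p under 0.05, and their mRNAs summed to 78400, 87930 and 65420 TPM in 15% CO2 1, 2 and 3 and to 58210, 92550 and 89070 TPM in controls 1, 2 and 3. Of 13 mitochondrially encoded mRNAs, mt-Co3 alone passed, by 0.57 ± 0.15 without control 1.

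**Figure D5:**
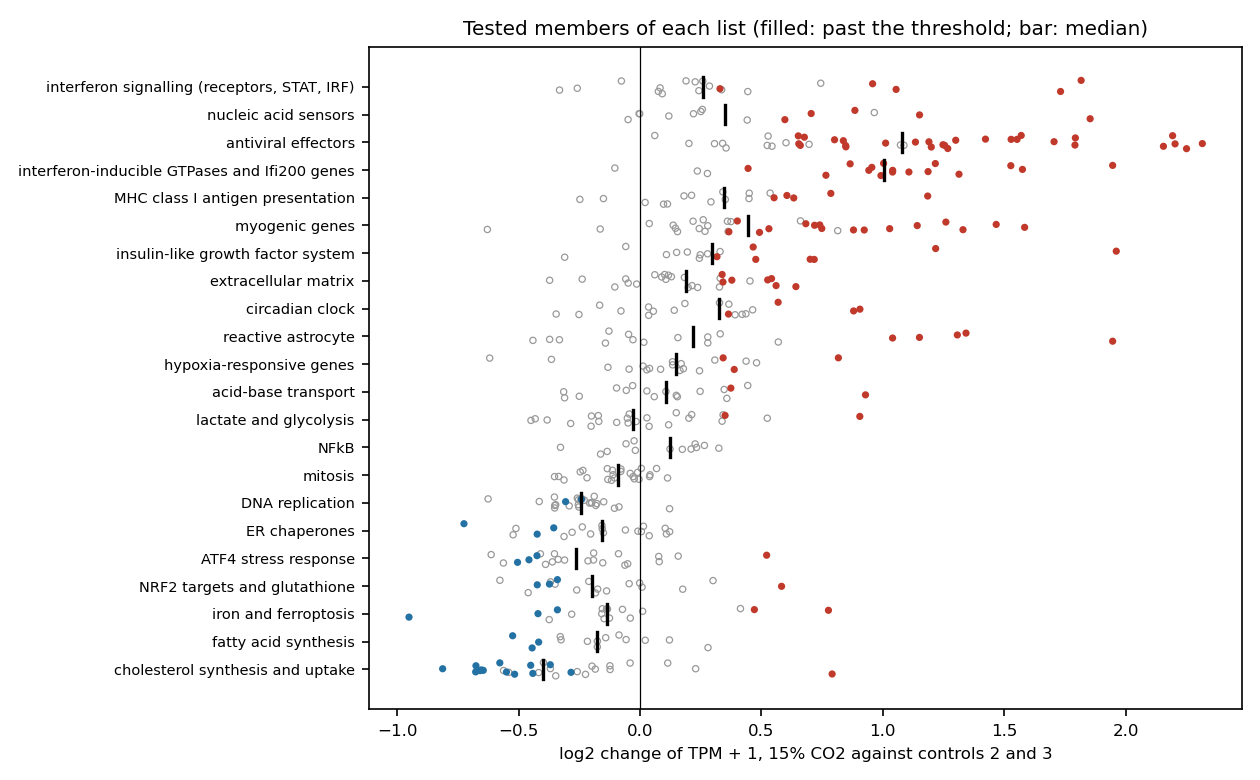
Log2 change of TPM + 1 between 15% CO2 and controls 2 and 3 for each tested member of 22 gene lists (rows, scattered vertically for visibility), red and blue for genes that rose and fell past the threshold, open for the rest, with a bar at the median of the list. The bars of antiviral effectors and of the GTPases stand near 1, at 1.08 and 1.003, and the bar of the cholesterol genes at -0.40.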

How the data were processed

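Total RNA of 12 C8-D1A samples, 3 in each of 4 groups, was sequenced from NEBNext Ultra II libraries, per the labels. The deposited table gives TPM for 21959 Ensembl genes, 1 column a library. The submitters' processing notes name fastp 0.22.0, HISAT2 2.1.0 and the build GRCm39. Which counter and annotation made the TPM, and if strand was used, is not given in the sources used here. All columns have a total of 1000000, so values are shares of a library, and without counts the depth is unknown and no counting interval or floor is given. Descriptions of replicates 2 and 3 write CO3 and CO4 for CO2, which was read as a copying error.

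Symbols came from GENCODE M21 by Ensembl ID (21851 matched, 108 did not, 26 repeats kept their ID). Promoter sequence came from the RefSeq table for GRCm38.p6, matched by symbol for 9640 tested genes, while the deposited table carries no coordinates. Genes reaching 1 TPM in 3 or more of the 12 libraries were fitted as log2(TPM + 1) with limma 3.58.1 in R 4.3.3 (group means over all libraries, eBayes with a trend, two-sided, Benjamini-Hochberg, threshold 0.05), once with all 12 libraries and once without control 1. Fits were tested on simulated data. Tables were made in Python 3.11.15 with pandas 2.3.3.

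Named genes were the 15 highest and up to 10 lowest past the threshold in each comparison (15% CO2 outside the control range, a mean of at least 5 TPM in a group, no predicted name), up to 4 members of each list, and a fixed panel. Other genes were named after their values were seen, among them Slc1a3, Aqp4, Nes, Sox2 and Tnnt2, and most of the rest are marked so. Some genes of this rule appear only in the counts, and a few list members are not reported here by name or drawn singly. The comparison, its members and the gene lists were chosen with earlier results of these data known. Alternatives were another pseudocount, filter, scaling, variance model, library weights, the replicate number as a block, a fit of the compared groups alone, and leaving out each library.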

Additional observations from a re-analysis of the deposited data

How the results depend on the processing

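With all controls, the 166 genes past the threshold became 0 in a fit of the 6 compared libraries alone (1165 at an unadjusted p under 0.05), 4986 with estimated library weights, whose estimation stopped before convergence and which gave control 1 a weight of 0.028, 72 with the replicate number as a block, and 30 to 902 without 1 library. Without control 1, the 902 became 1357 with median-of-ratios scaling, 3101 with library weights, and 56 to 624 without 1 more library. Other filters, pseudocounts, scalings and variance models gave 137 to 199 and 729 to 1132. The higher and lower genes without control 1 were 766 and 591 with median-of-ratios scaling and 689 and 443 with quantile normalization, against 711 and 191. The causes of these shifts were not tested.

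Genes higher than in all 3 other groups numbered 615 with library weights and 2 to 92 without 1 library, against 8. Genes lower numbered 321 with library weights, 1 with quantile normalization (Rbm3) and 0 to 11 without 1 library, against 0. Neither could be computed in the fit of 2 groups.

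Deviations of samples of the same number had correlations over genes of 0.022, 0.042 and -0.002 for pairs 1, 2 and 3. Control 1 entered the mean from which the controls deviate, so these values cannot tell if the numbers pair libraries. Without replicate 1 the value for pair 2 was 0.055. Controls 1 and 2 correlated best with their own number and control 3 with 15% CO2 2 (0.015). The replicate block left 34 of 54 named-gene calls with all controls and 117 of 128 without control 1, where the count was 864. Between all controls and control 1 left out, 5 named genes changed sign: with control 1 Rrm1 stood at 0.043, Btg2 at -0.11, Plk2 at -0.005, Egr1 at -0.18 and Ndrg2 at -0.35. No other setting turned the sign of a named call. Of the named calls, 16 of 54 and 24 of 128 kept their call in every setting but the 2-group fit and library weights. TPM without counts limits all low values: 1 read cannot be told from several.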

Other observations

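These lists were written after the values were seen, so their counts are descriptions. Of 18 tested tripartite motif and Schlafen genes, a further interferon-induced class, 9 rose with all controls and 10 without control 1, beside 1.28% and 5.82% of all genes. Their medians were 0.80 and 0.74. Slfn8 had 4.54, 5.77 and 6.51 TPM in controls and 17.05, 19.8 and 13.2 TPM under 15% CO2 (1.41 ± 0.17), and Trim12c, which has close copies, 6.58, 5.55 and 5.87 and 15.5, 20.8 and 13.7 TPM (1.32 ± 0.15). Trim34a went from 3.74, 2.11 and 2.09 to 7.96, 9.75 and 6.096 TPM (1.30 ± 0.22). Of 30 tested genes of contraction and muscle metabolism, 4 rose with all controls and 13 without control 1, beside the same shares of all genes. Atp2a1, the calcium pump of fast muscle, had 7.601, 4.27 and 5.25 TPM in controls and 14.5, 18.7 and 9.54 TPM under 15% CO2 (1.17 ± 0.24).

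Ribosome assembly and proteasome genes lay on the other side without control 1. Of 72 ribosome assembly genes, 70 had changes below 0 and 15 fell, with a median of -0.25, and all 32 proteasome genes had changes below 0 and 7 fell, with a median of -0.43. Over all genes 1.56% fell. With all controls 0 of either list passed by limma, with 6 and 8 at an unadjusted p under 0.05, and with either control 2 or control 3 as the only control 0 passed. Median-of-ratios scaling gave 26 and 20 falls without control 1, while falls over all genes went from 191 to 591. Ddx21, a nucleolar helicase, had 180.2, 315 and 301 TPM in controls and 208, 225 and 189 TPM under 15% CO2 (-0.57 ± 0.11 without control 1). Nop58, a core protein of small nucleolar particles, had 59.8, 95.1 and 92.0000 and 62.3, 69.98 and 60.5 TPM (-0.54 ± 0.10), and Psmc4, a proteasome ATPase, 179, 236 and 222 and 161, 174 and 144 TPM (-0.52 ± 0.10). Control 1 was below controls 2 and 3 for all 3, and its part was not tested.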
